A study of Mus musculus with 8 samples.

Results

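The comparison described here set Setdb1-deleted mouse pro-B cells kept in interleukin-7 (IL-7) against Setdb1-deleted pro-B cells taken from bone marrow. It rests on 4 of the 8 arrays of the study, 2 per group, chosen by the sample titles and not by any measured value. The marrow group was Setdb1 Δ/Δ with no Bcl2 transgene. The culture group was Setdb1 Δ/Δ and bcl-2 transgenic, and had been held for 4 days in IL-7 at 5 ng/µl. The deletion was therefore shared by both groups, while the culture and the transgene always came together and cannot be told apart. The labels give a growth protocol with the culture step for the marrow samples too, whereas the study's design text has them directly from the marrow. The 2 remaining groups, Setdb1 C/C (floxed, called control cells here) from marrow without the transgene and in IL-7 with it, gave 2 arrays each. They entered the fit and are used only where the deleted cells are set against them. The labels name neither the Cre line nor the promoter of the transgene, and they do not tell whether arrays of a group stem from different animals or cultures. The p-values therefore cover no more than the spread among these arrays, part of which may be technical.

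Pro-B cells are B-cell precursors of the marrow, in which the Rag1 and Rag2 recombinase joins the segments of the immunoglobulin heavy chain gene. IL-7, made by marrow stroma, binds a receptor of Il7r and Il2rg chains, acts through JAK kinases and STAT5, and supports survival and division of these cells. Setdb1 is a methyltransferase of histone H3 lysine 9 that silences retroviral elements, and BCL2 is a protein that protects cells from apoptosis.

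RNA was amplified, labelled and hybridised to Affymetrix arrays whose probesets each cover a part of a gene. Values are log2 intensities. The value of a gene is a summary over its probesets, and a difference of 1 is a 2-fold difference. A gene was tested where at least 2 arrays read it above 4.03, the 25th percentile of gene values. This left 16050 of 20416 genes, and a value under 4.03 is called dim. "Past the threshold" means an adjusted p under 0.05 by limma, adjusted over all tested genes by the Benjamini-Hochberg method, and "rose" and "fell" are used of such genes only. Values are given in the order array 1, array 2. Since each value comes from bulk RNA, fewer cells of a type and less RNA per cell cannot be told apart anywhere below.

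Over the 8 arrays the median of the gene values ran from 5.25 to 5.33. Arrays of a group correlated over genes at 0.988 in deleted marrow cells and 0.968 in deleted cultured cells. Setdb1, read over 23 probesets, stood at 6.74 and 6.53 in marrow and 6.66 and 6.99 in culture. The gene-level difference was 0.20 (SE 0.21, adjusted p = 0.824), and the control arrays lay in the same range, from 6.45 to 7.02. The labels do not say which exons were deleted, so this gene value does not check them. Bcl2 stood at 5.40 and 5.54 in marrow and 5.65 and 5.18 in culture, a difference of -0.06 (adjusted p = 0.974). Whether its 9 probesets read the transgene is not given in the sources used here.

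Markers of the B lineage were bright in both groups. Vpreb1, a part of the surrogate light chain, stood at 10.88 and 10.86 in marrow and 11.22 and 10.78 in culture. Igll1, the other part, stood at 12.16 and 12.01 against 11.87 and 12.02. Cd79a, the signalling chain of the B-cell receptor, stood at 9.90 and 9.98 against 10.30 and 9.63, and Pax5, the B-lineage commitment factor, at 9.82 and 9.93 against 10.01 and 9.65. The groups overlapped or lay within 0.14 of each other on average for each of these genes, which were chosen after their values were seen. They do not stand for their whole list. Of 30 early B-lineage factors and surface proteins tested, 1 rose and 1 fell, while 0.978% of all genes tested passed the threshold. At an unadjusted p under 0.05 by limma, 3 were higher and 7 lower in culture, against 11.6% of all genes in either direction. Both culture arrays were higher for 8 members and lower for 12, against 19.3% and 24.6% of all genes. Differences ran from -1.89 to 2.46, and the median was -0.07 against -0.02 for all genes tested. Marrow samples labelled pro-B also held bright granulocyte genes, which are given with the results they touch.

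In the deleted cells 157 genes (0.978% of those tested) passed the threshold between culture and marrow. Of these, 110 rose (0.685%) and 47 fell (0.293%). The difference exceeded 2-fold for 139 of them and 4-fold for 56, of which 36 rose and 20 fell. In all 157 the 2 arrays of one group lay above the 2 of the other. Of all genes tested, 19.3% were higher and 24.6% lower in both culture arrays. Counts in the lists below are to be read beside these shares and the 0.685% that rose and 0.293% that fell. Where groups of a gene past the threshold are said below not to overlap, this holds for every such gene and is no added support. At an unadjusted p under 0.05 the count was 1860 (11.6%). Single arrays weighed heavily on the adjusted calls. Without marrow array 1, only Tgfb3 of the 157 still passed, and without marrow array 2, Tgfb3, Slc1a4 and Ear2. Without culture array 1 the number was 18 of 157, and without culture array 2 it was 31. With an array left out, 1 group has a lone array that is assumed to vary like the others. No gene among the 157 changed sign in any of these 4 fits. Because the groups of all 157 did not overlap, this was fixed in advance and adds no support. In these fits 6 genes were not tested without culture array 1 and 6 without culture array 2.

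The genes that rose most were led by a growth factor, metabolic enzymes and cytoskeletal or matrix proteins. Tgfb3, a ligand of the TGF-beta family, was dim in marrow at 3.49 and 3.71 and stood at 9.04 and 8.67 in culture. All 10 of its probesets were higher in culture, and the gene rose 38.3-fold (log2 difference 5.26, SE 0.23, adjusted p = 0.0005275). Because the marrow arrays lay at the dim level, the size of this fold depends on how the arrays read dim signal. Gldc, the decarboxylase of the glycine cleavage system, was at 4.87 and 4.70 in marrow and 9.55 and 9.77 in culture, a rise of 4.87 (SE 0.57, adjusted p = 0.0148). Myh10, a heavy chain of non-muscle myosin, was at 5.08 and 5.16 against 8.50 and 8.84, a rise of 3.55 (SE 0.30, adjusted p = 0.00723). For these genes the 2 arrays of a group lay within 0.4 of each other, far less than the distance between the groups. Cd36, a receptor that takes up fatty acids, rose by 3.16 (adjusted p = 0.0145), from 5.35 and 5.84 to 9.10 and 8.40. St6galnac5, a sialyltransferase of gangliosides, rose by 2.98 (adjusted p = 0.0107), from 4.90 and 4.75 to 8.31 and 7.28. Crhbp, which binds corticotropin-releasing hormone, rose by 2.87 (adjusted p = 0.0109), from 6.79 and 6.42 to 9.83 and 9.12. The remaining genes among the 15 largest rises were Scd1, Slc1a4 and Asns, described with their pathways, Timp1 and Timp3, described with the matrix genes, and Tmem59l (3.30), the phosphatase Ptpn14 (3.21), the calmodulin-binding Pcp4 (2.87) and the protocadherin Pcdh9 (2.77). Of the 15, 1 still passed without marrow array 1 and 2 without marrow array 2, against 6 without culture array 1 and 9 without culture array 2.

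**Figure D1:**
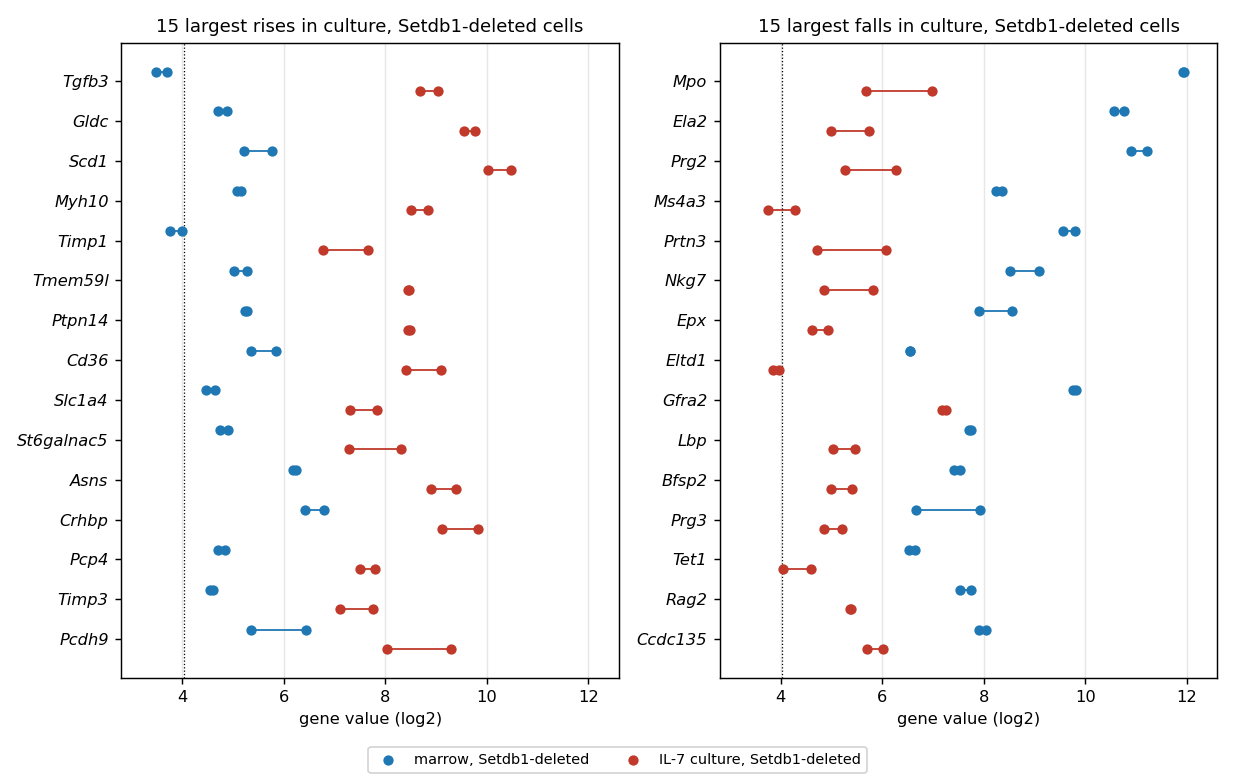
Gene values (log2, horizontal axis) of the 15 largest rises and the 15 largest falls in Setdb1-deleted cells. Each point is 1 array, a line joins the 2 arrays of a group, and the dotted line marks the dim value of 4.03. Tgfb3 runs from 3.49 and 3.71 in marrow to 9.04 and 8.67 in culture, and Mpo from 11.94 and 11.93 to 5.69 and 6.97.

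Enzymes of cholesterol and fatty acid synthesis formed the listed group with the most calls: 11 of 30 members tested rose and 0 fell. The shares of all genes tested were 0.685% and 0.293%. The median difference of the list was 1.01, against -0.02 over all genes tested, and 27 of the 30 were higher in both culture arrays, a state found in 19.3% of all genes. Scd1, the desaturase that makes oleate, stood at 5.77 and 5.22 in marrow and at 10.48 and 10.02 in culture. It rose 27-fold (log2 difference 4.76, SE 0.46, adjusted p = 0.0098). Its level in deleted marrow cells was also the lowest of the 4 groups, since control marrow cells stood at 8.71 and 10.18 and control cultured cells at 11.56 and 11.06. Fdps, which makes farnesyl pyrophosphate, was at 6.27 and 6.28 in marrow and 7.58 and 7.64 in culture, a rise of 1.33 (SE 0.14, adjusted p = 0.0107). Fasn, the fatty acid synthase, rose by 1.40 (SE 0.17, adjusted p = 0.0175), from 7.35 and 7.49 to 8.78 and 8.86. Cyp51, the lanosterol demethylase, rose by 1.75 (SE 0.22, adjusted p = 0.0175), from 6.01 and 5.77 to 7.32 and 7.96. None of these 4 genes had overlapping groups. The other rises of the list, named because their number is small, were Hmgcs1 (1.23), Idi1 (1.29), Fdft1 (0.99), Sc4mol (1.79), Sc5d (1.10), Hsd17b7 (1.34) and Dhcr7 (1.04), so that steps from HMG-CoA to cholesterol were represented along the route. Sqle, the squalene epoxidase, had values of 6.05 and 6.50 against 7.50 and 7.99 and did not pass (adjusted p = 0.0635). In control cells 9 members of the list passed, with a median difference of 1.06. Without a marrow array 0 of the 11 passed, and without culture array 1 or 2 it was 1 (Cyp51 and Scd1 in turn).

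The ATF4 programme for amino acid supply, which cells use when amino acids are short or secretory load is high, was the next list by median (0.86). Of 25 members tested, 6 rose, 0 fell and 21 were higher in both culture arrays. The shares of all genes tested were 0.685%, 0.293% and 19.3%. Slc1a4, a transporter of alanine, serine and cysteine, stood at 4.46 and 4.64 in marrow and 7.83 and 7.30 in culture. It rose 8.07-fold (log2 difference 3.01, SE 0.19, adjusted p = 0.00299), and its culture values lay above those of control cells in culture, 5.03 and 5.17. Asns, asparagine synthetase, was at 6.19 and 6.24 against 8.89 and 9.38, a rise of 2.93 (SE 0.24, adjusted p = 0.00723). Gpt2, which makes alanine from pyruvate, rose by 1.47 (adjusted p = 0.0098), from 4.11 and 4.17 to 5.62 and 5.58. Sesn2, a sensor of leucine that restrains mTORC1 and stands on the p53 list as well, rose by 1.34 (adjusted p = 0.0175), from 5.36 and 5.21 to 6.55 and 6.70. The remaining rises were the cationic amino acid transporter Slc7a1 (1.0) and Chac1, which degrades glutathione (1.15). Atf4 itself had values of 8.73 and 8.99 against 9.31 and 9.5 (adjusted p = 0.209), and Ddit3, the CHOP factor of the same response, 7.52 and 7.45 against 7.50 and 7.67 (adjusted p = 0.916). Control cells had 1 call in the list, Asns, and a list median of 0.39. Calls left without marrow array 1, marrow array 2, culture array 1 and culture array 2 were 0, 1, 2 and 3 of the 6.

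Promoter sequences of the lipid and amino acid lists were searched because several members of each list rose. In RefSeq promoters of GRCm38.p6, from 250 bases before to 50 after each start site, the letters TGATGNAA of an ATF4 composite element were searched on both strands. They were found in 7 of the 22 ATF4-list members with a promoter (31.8%), against 4.51% of all 27025 genes. Of the 6 members that rose, Asns, Slc1a4 and Chac1 held them. The letters TCACNCCAC of a sterol regulatory element were found in 1 of 23 lipid-list members (4.35%), Hmgcs1, against 1.44% of all genes. Both motifs were added after the data were seen. The amino acid list was drawn up as ATF4 targets, so a high share of the ATF4 letters can come from that choice. It is no result about the genes that rose. A match describes letters in this window and is no evidence of binding. The stretches below run 5′ to 3′ along the gene's strand from 150 bases before the start site to 30 bases from it on, with the match in capitals. They cover chr6:7693180-7693359 (minus strand) for Asns, chr11:20332684-20332863 (minus strand) for Slc1a4 and chr13:119690201-119690380 (plus strand) for Hmgcs1, and the Slc1a4 match lies on the opposite strand.
Asns: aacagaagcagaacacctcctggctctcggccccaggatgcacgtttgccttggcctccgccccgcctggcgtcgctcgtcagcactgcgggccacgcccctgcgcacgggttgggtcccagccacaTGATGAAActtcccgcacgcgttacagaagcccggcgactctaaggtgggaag
Slc1a4: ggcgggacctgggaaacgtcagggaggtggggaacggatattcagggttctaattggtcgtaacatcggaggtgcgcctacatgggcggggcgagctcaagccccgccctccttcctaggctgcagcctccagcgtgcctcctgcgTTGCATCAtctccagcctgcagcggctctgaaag
Hmgcs1: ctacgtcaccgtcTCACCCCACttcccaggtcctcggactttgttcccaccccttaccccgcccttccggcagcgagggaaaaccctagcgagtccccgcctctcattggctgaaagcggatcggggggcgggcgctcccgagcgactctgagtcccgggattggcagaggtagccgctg

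Sugar, iron and stress genes held fewer calls. In the glycolysis and hypoxia list, Slc2a1 and Hif1a rose among 26 members tested, 0 fell, and the median was 0.47. Slc2a1, the glucose transporter GLUT1, was at 6.76 and 6.55 in marrow and 8.08 and 8.07 in culture, a rise of 1.42 (adjusted p = 0.0406). Hif1a, the oxygen-regulated transcription factor, rose by 0.97 (adjusted p = 0.0407), from 7.47 and 7.52 to 8.31 and 8.62. Neither gene's groups overlapped. Tfrc, the transferrin receptor, was the 1 call among 18 genes of iron, haem and oxidative stress, at 8.63 and 8.92 against 9.85 and 10.08 (rise of 1.2, adjusted p = 0.026). In the p53 list Sesn2 and Ccng1, cyclin G1, rose among 20 tested, with a list median of 0.45. Ccng1 stood at 7.81 and 7.75 against 9.07 and 9.05 (rise of 1.28, adjusted p = 0.0232). Nr4a1, an immediate early nuclear receptor, was the 1 call of 24 immediate early and heat shock genes (rise of 0.96, adjusted p = 0.0406). Its values went from 5.45 and 5.58 to 6.51 and 6.44, near those of control cells in marrow (6.48 and 6.23). In the list of mitochondrial respiration and the TCA cycle 0 of 24 passed and the median was -0.03. None of the calls in these lists still passed when any 1 of the 4 arrays of deleted cells was left out.

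Among 25 genes of IL-7 receptor signalling and STAT5 targets, 1 rose, 2 fell and the median was -0.05. Cish, a feedback inhibitor induced by STAT5, stood at 6.09 and 5.57 in marrow and 7.91 and 7.99 in culture. It rose 4.34-fold (log2 difference 2.12, SE 0.22, adjusted p = 0.0107). Both culture arrays also lay above the control cultures, at 5.99 and 6.39. The deleted marrow arrays likewise lay above control marrow, at 4.58 and 4.8, so Cish was higher in culture in control cells too. The difference between the culture effects was 0.62 (SE 0.31) and did not pass (adjusted p = 0.683 by limma). Il7r, the receptor's own alpha chain, fell 2.74-fold, from 10.65 and 10.18 to 8.98 and 8.94 (log2 difference -1.45, SE 0.20, adjusted p = 0.0245), and all 11 of its probesets were lower in culture. Dusp6, a phosphatase of ERK kinases, fell by 1.90 (SE 0.27, adjusted p = 0.0259), from 7.80 and 8.46 to 6.03 and 6.42. For these 3 genes the groups did not overlap. Members that did not pass went both ways. At an unadjusted p under 0.05 by limma, 5 of the 25 were higher and 6 lower in culture, calls included. Of all genes tested, 11.6% reached that level in either direction. Both culture arrays were higher for 10 members and lower for 9, against 19.3% and 24.6% of all genes. Over the whole list 12 differences were positive and 13 negative, so the median near 0 does not show the changes each way. Pim1, a survival kinase, was at 7.65 and 7.92 against 8.86 and 8.91 (adjusted p = 0.115), and Socs3, another feedback inhibitor, at 5.6 and 5.64 against 6.40 and 6.58 (adjusted p = 0.0653). Spred2, an inhibitor of RAS and ERK signalling, was at 7.90 and 7.46 against 6.28 and 6.87 (adjusted p = 0.105), and Bcl2l1, which encodes BCL-XL, at 7.60 and 7.76 against 7.15 and 6.50 (adjusted p = 0.291). Among the kinases and factors of the pathway, Jak1 had a difference of -0.08 (adjusted p = 0.933), Stat5a of -0.09 (adjusted p = 0.887) and Stat5b of -0.44 (adjusted p = 0.473). None of the 3 calls passed when any 1 of the 4 arrays of deleted cells was left out.

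STAT5 binds the palindrome TTCNNNGAA, searched here once per site since both strands read alike. In the same promoter windows, 3 of 21 members of the list with a promoter held it (14.3%), against 9.55% of all genes. The list includes STAT5 targets by choice, which can itself raise its share. Cish and Il7r, which moved in opposite directions, were among the 3. Cish held 2 copies, both just past the start site, and Il7r held 1, well before it. The stretches are printed as above, with the palindromes in capitals, and cover chr9:107296509-107296688 (plus strand) for Cish and chr15:9529847-9530026 (minus strand) for Il7r.
Cish: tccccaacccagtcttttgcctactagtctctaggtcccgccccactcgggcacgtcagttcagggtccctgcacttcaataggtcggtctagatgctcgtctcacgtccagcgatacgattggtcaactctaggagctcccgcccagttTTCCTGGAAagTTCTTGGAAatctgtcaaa
Il7r: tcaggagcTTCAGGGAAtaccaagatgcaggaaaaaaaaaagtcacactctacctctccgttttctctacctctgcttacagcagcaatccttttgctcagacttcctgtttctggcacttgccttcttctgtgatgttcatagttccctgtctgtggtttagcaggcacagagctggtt

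Of 14 genes of V(D)J recombination 1 fell, 0 rose, 11 had a negative difference and the median was -0.48. Rag2, a subunit of the recombinase, stood at 7.74 and 7.52 in marrow and 5.35 and 5.39 in culture, and fell by 2.26 (SE 0.29, adjusted p = 0.0178). In control cells Rag2 was at 6.34 and 7.29 in marrow and 6.55 and 6.36 in culture, with overlapping groups. Rag1, its partner, had values of 9.74 and 9.17 in marrow and 7.03 and 6.43 in culture, a difference of -2.72 (SE 0.53) that missed the threshold (adjusted p = 0.0735). Dntt, the enzyme that adds bases at the joints, was at 10.85 and 10.89 against 9.36 and 9.85 (adjusted p = 0.653). Both Rag genes in deleted cultured cells lay below all control arrays. Rag2 did not pass when any 1 of the 4 arrays of deleted cells was left out.

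Within the early B-lineage list Ikzf3 rose and Il7r fell. Ikzf3, the zinc finger factor Aiolos that acts from the pre-B stage on, stood at 5.37 and 5.21 in marrow and at 8.33 and 7.18 in culture. It rose 5.51-fold (log2 difference 2.46, SE 0.42, adjusted p = 0.0485). Of 28 pre-B and mature B genes, Blk rose and 0 fell, with a list median of 0.15. Blk, a kinase of the SRC family in B cells, was at 6.59 and 6.57 against 8.85 and 8.18 (rise of 1.93, SE 0.23, adjusted p = 0.0175). In both genes the deleted marrow arrays lay below every other array of the study, control marrow included. Ms4a1, which encodes CD20, was dim in deleted marrow at 3.46 and 3.78 and stood at 6.29 and 5.47 in culture (adjusted p = 0.264), against 7.09 and 9.69 in control marrow. Bank1, an adaptor of B-cell receptor signalling, was at 3.84 and 4.60 against 5.83 and 5.87 (adjusted p = 0.0616). Without culture array 2 Blk still passed, and neither Ikzf3 nor Blk did without marrow array 1, marrow array 2 or culture array 1.

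Antigen presentation by MHC class II had 2 rises among 11 genes tested and a median of 0.17. Cd74, the invariant chain, stood at 7.81 and 7.59 in deleted marrow cells and at 9.65 and 9.23 in culture, a rise of 1.74 (SE 0.20, adjusted p = 0.0143). H2-Aa, an alpha chain of class II, was at 7.77 and 7.51 against 9.10 and 8.95, a rise of 1.38 (SE 0.20, adjusted p = 0.029). Control cells stood between 10.27 and 11.18 for both genes in marrow and culture alike, above the deleted cultured cells in every array. H2-Ab1, the partner chain, had values of 8.11 and 8.22 against 8.31 and 8.37 (adjusted p = 0.931), and Ciita, the master activator of class II genes, 4.97 and 5.53 against 5.67 and 5.18 (adjusted p = 0.919), with overlapping groups. Dendritic cells also express class II genes, and the 14 dendritic cell markers had a median of 0.59 in the same comparison. Siglech, a marker of plasmacytoid dendritic cells, was at 5.90 and 5.83 against 7.27 and 7.99 (adjusted p = 0.316). The part of such cells in the class II rises was not tested. Cd74 still passed without culture array 2, and neither gene passed when any 1 of the other 3 was left out.

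**Figure D2:**
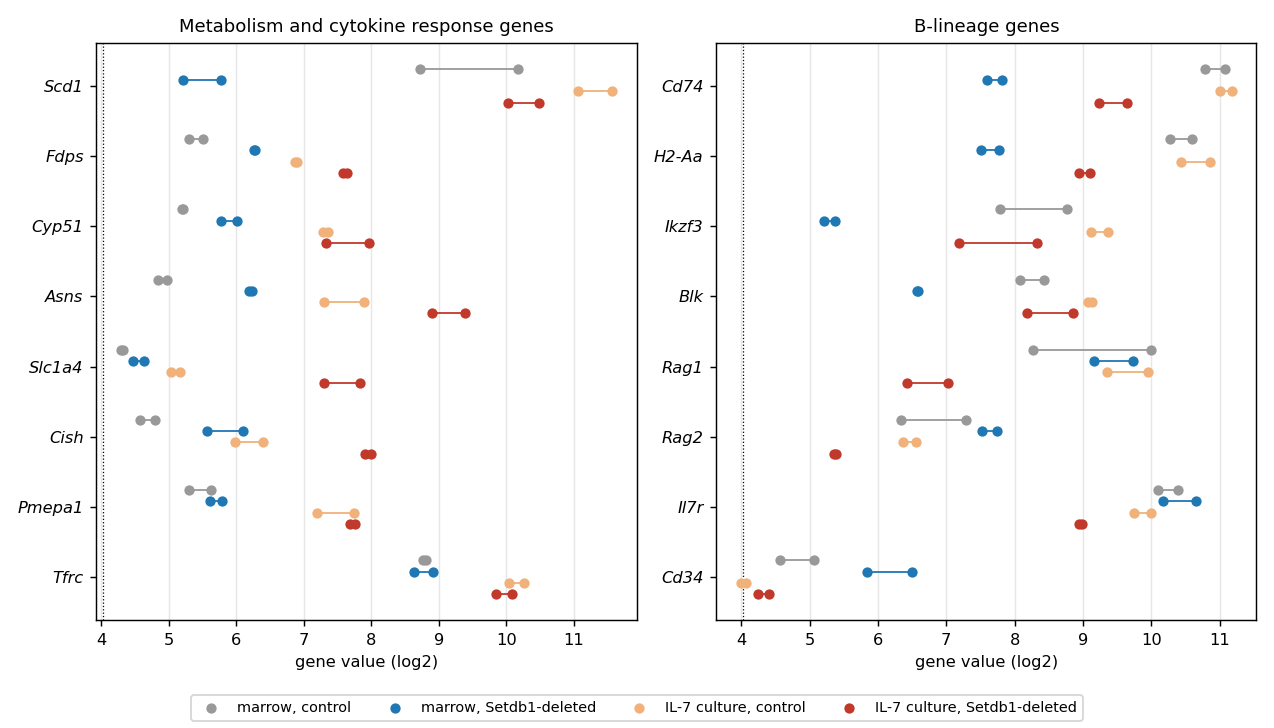
Gene values (log2, horizontal axis) of metabolic and cytokine response genes (left) and B-lineage genes (right) in the 4 groups of the study. Each point is 1 array, a line joins the 2 arrays of a group, and the dotted line marks the dim value of 4.03. Cd74 and H2-Aa in deleted cells lie below the control arrays in marrow and in culture, and Slc1a4 is highest in deleted cultured cells, at 7.83 and 7.30.

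Replication and division genes mostly had negative differences, and few passed the threshold. At an unadjusted p under 0.05 by limma, 16 of 33 replication genes and 21 of 29 mitosis genes were lower in culture. In both lists 0 were higher at that level, which 11.6% of all genes reached in either direction. Of 33 DNA replication genes, 1 fell, 0 rose and 30 were lower in both culture arrays, against 24.6% of all genes, with a median of -0.47. Tyms, thymidylate synthase, was the one that fell, from 9.36 and 9.30 to 8.14 and 8.37 (fell by 1.07, SE 0.18, adjusted p = 0.0439). Of 29 mitosis genes, Kif23 fell, 27 were lower in both culture arrays and the median was -0.59. Kif23, a kinesin of the dividing cell's midbody, went from 9.41 and 9.35 to 8.24 and 8.49 (fell by 1.02, SE 0.16, adjusted p = 0.0385). Among 25 G1 regulators 0 passed and the median was -0.37. Their lowest p belonged to Cdk6, a kinase of the G1 phase, at 10.03 and 9.97 against 8.60 and 9.19 (difference -1.10, adjusted p = 0.0619), and to E2f8, a repressive E2F factor, at 8.57 and 8.68 against 7.79 and 7.95 (adjusted p = 0.0756). Control cells had medians of -0.20 for replication and -0.33 for mitosis with 0 calls in each list. Neither Tyms nor Kif23 passed when any 1 of the 4 arrays of deleted cells was left out.

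Promoters of these lists were searched for 3 motifs. E2F letters TTTGGCGC stood in 6 of 27 DNA replication promoters (22.2%, against 0.585% of all genes) and TTTCGCGC in 5 of 27 (18.5%, against 0.374%). Counted together, 9 of 27 held either form, on either strand, and Tyms held neither. The 2 forms can share bases in a site read on both strands. For the ER chaperone list, in which 0 of 27 passed and the median was 0.21, the ER stress element, CCAAT and CCACG with 9 bases between them on either strand, stood in 8 of 23 promoters (34.8%, against 0.137%). The ribosome biogenesis and MYC target list had 0 calls of 27 and a median of 0.26, and the E-box CACGTG stood in 6 of 22 of its promoters (27.3%, against 8.09%). Lists drawn up from what a pathway controls can hold its motif whether or not their members changed, as the ER list with its 0 calls does. The motif letters and the list medians are given side by side, and no relation between them was tested.
The lowest p of the ER list belonged to Xbp1, a transcription factor of the unfolded protein response, at 8.29 and 8.34 against 9.06 and 9.35 (difference 0.89, adjusted p = 0.147). Herpud1, which acts in degradation of ER proteins, followed at 8.90 and 8.97 against 9.59 and 9.59 (adjusted p = 0.239). In the ribosome list the lowest p belonged to Ppan (difference 0.59, adjusted p = 0.137) and Wdr43 (0.57, adjusted p = 0.291), both factors of ribosome assembly.

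Of 39 interferon response genes 1 rose, 0 fell, 34 had a positive difference and the median was 0.56. Stat2, a subunit of the factor that type I interferon activates, was at 6.67 and 6.49 in marrow and 7.44 and 7.54 in culture (rise of 0.91, SE 0.15, adjusted p = 0.041). Its culture values lay beside those of control cells in culture, 7.46 and 7.30. Control marrow stood at 7.22 and 7.16, so that both deleted marrow arrays lay below all control arrays, and the difference in control cells was 0.19. Bst2, tetherin, had values of 7.40 and 7.23 against 8.0 and 9.22 (adjusted p = 0.273), so that culture array 2 was the higher. Of 21 NF-kB targets 0 passed and the median was 0.25. The lowest p there belonged to the chemokine gene Cxcl2 (1.01, adjusted p = 0.0661) and to Birc3, an inhibitor of apoptosis (0.83, adjusted p = 0.176).

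Survival, homing and heterochromatin lists held few calls. Bcl2l11, which encodes the pro-apoptotic protein BIM, was the 1 call of 14 BCL2 family genes, at 7.83 and 7.49 in marrow and 10.09 and 9.20 in culture. It rose 3.94-fold (log2 difference 1.98, SE 0.33, adjusted p = 0.0485). Control cells stood at 6.57 and 6.59 in marrow and 8.30 and 7.57 in culture, lower in each setting. Of 20 receptors of homing, adhesion and the niche, Cxcr5, the receptor that draws B cells to follicles, rose by 2.64 (adjusted p = 0.0403) on 2 probesets, from 4.57 and 4.29 to 7.02 and 7.12. Cd34, a surface protein of early progenitors, fell by 1.85 (SE 0.25, adjusted p = 0.0232), from 6.50 and 5.85 to 4.40 and 4.24. Kit, the stem cell factor receptor, had values of 7.02 and 7.23 against 4.92 and 5.56 (adjusted p = 0.0582). Among 15 stem and progenitor markers Cd34 was the 1 fall and the median was -0.47. Lists of H3K9 methyltransferases and heterochromatin (21 tested), FOXO targets and quiescence genes (20) and germline and imprinted genes (14) had 0 calls each, with medians of -0.25, -0.09 and -0.09. The lowest p of these lists belonged to Uhrf1 (-0.63, adjusted p = 0.164) and Morc3 (-0.62, adjusted p = 0.164), to Rag1 and Cdkn2d (-0.60, adjusted p = 0.273), and to H19 (2.24, adjusted p = 0.0611) and Cdkn1c (-0.34, adjusted p = 0.41). Stat2, Bcl2l11, Cxcr5 and Cd34 did not pass when any 1 of the 4 arrays of deleted cells was left out.

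The largest falls were led by genes known from granulocytes, Mpo, Prg2, Ms4a3 and Prtn3 among them. Mpo, myeloperoxidase, stood at 11.94 and 11.93 in marrow and at 5.69 and 6.97 in culture, 48.7-fold lower (log2 difference -5.61, SE 0.69, adjusted p = 0.0175). Prg2, the major basic protein of eosinophils, was at 10.90 and 11.22 against 5.27 and 6.28 (fell by 5.28, SE 0.56, adjusted p = 0.0107). Ms4a3, a membrane protein of granulocyte and monocyte progenitors, fell by 4.29 (SE 0.45, adjusted p = 0.0107), from 8.36 and 8.25 to 3.75 and 4.28. Their groups lay far apart, and culture array 2 was higher than culture array 1 in each. Prtn3, proteinase 3, fell by 4.28 (adjusted p = 0.029) and Ela2 by 5.29 (adjusted p = 0.0098). Ela2 is an array symbol that RefSeq lists as a synonym of both Elane, neutrophil elastase, and Cela2a, a pancreatic elastase. In all, 4 of 23 neutrophil markers fell (Mpo, Ms4a3, Prtn3 and the ficolin Fcnb, -2.10), 0 rose, and the list median was -2.01. The share of all genes tested that fell was 0.293%. Of 14 mast cell, basophil and eosinophil markers 3 fell, Prg2, the eosinophil peroxidase Epx (-3.45) and Ear2, an eosinophil ribonuclease read by 1 probeset (-4.32), with a median of -0.76. Without marrow array 1 none of the 15 largest falls passed, without marrow array 2 none, without culture array 1 Bfsp2 alone, and without culture array 2 it was 6.

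Some neutrophil genes, picked out by their values, split the 2 culture arrays instead of the groups. S100a8, a subunit of calprotectin, was at 11.97 and 11.94 in marrow and at 7.83 and 11.92 in culture, so that array 1 was low and array 2 at the marrow level. Ngp was at 10.37 and 9.81 against 5.39 and 10.07, and Lcn2 at 9.64 and 9.16 against 4.42 and 9.46. The control cultures split in the same way for S100a8, at 5.68 and 11.80. Summarised over all 23 markers, the mean level was 8.31 and 8.08 in deleted marrow and 5.05 and 7.54 in culture, with 1 marker dim in both culture arrays. The mast cell, basophil and eosinophil list had mean levels of 6.18 and 6.20 against 4.61 and 4.84. Monocyte and macrophage markers had 0 calls of 23, a median of 0.25 and mean levels of 6.10 and 5.85 against 5.68 and 6.54. Their lowest p belonged to F13a1 (-2.90, adjusted p = 0.0552) and Ly6c2 (-1.78, adjusted p = 0.435). Ear2, Ly6c2 and Hbb-b1 have near-identical copies in the genome, so their probesets may read more than 1 gene. What part these cells have in other calls was not tested.

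Among the remaining large falls were genes outside the granulocyte lists. Nkg7, a granule protein of cytotoxic cells and the 1 call of 10 NK and innate lymphoid markers, went from 8.51 and 9.08 to 5.82 and 4.86 (fell by 3.46, adjusted p = 0.0241). Gfra2, a co-receptor for neurturin, went from 9.76 and 9.82 to 7.17 and 7.25 (fell by 2.58, adjusted p = 0.0259). Bfsp2, a filament protein known from the lens, went from 7.41 and 7.54 to 4.98 and 5.41 (fell by 2.28, adjusted p = 0.00723), but with the median of its 9 probesets in place of the fitted summary the difference was -0.31. Tet1, which oxidises methylated cytosine, fell by 2.26 (adjusted p = 0.0175), from 6.64 and 6.52 to 4.59 and 4.05. The other falls of this size were the adhesion receptor Eltd1 (-2.64), Lbp, which binds lipopolysaccharide (-2.47), Prg3, a relative of Prg2 (-2.27), and Ccdc135 (-2.12).

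Rises in culture included genes of the extracellular matrix and of contractile cells, which were picked out after their values were seen. Timp1, an inhibitor of matrix metalloproteinases, was dim in marrow at 3.75 and 3.99 and stood at 6.77 and 7.65 in culture (rise of 3.35, SE 0.33, adjusted p = 0.0098). Acta2, smooth muscle actin, was at 4.75 and 5.32 against 7.07 and 8.45 (rise of 2.72, SE 0.42, adjusted p = 0.0352). Lox, which cross-links collagen, was dim at 3.63 and 3.85 against 5.46 and 6.93 (rise of 2.45, adjusted p = 0.0477). Culture array 2 was the higher for all 3 genes. Timp3 rose by 2.85, the secreted phosphoprotein Spp1 by 2.60, periostin, Postn, by 1.72, the collagen gene Col12a1 by 1.45 and the mesenchymal factor Prrx1 by 1.38. The chemokine genes Ccl2 (2.61) and Ccl12 (1.96) rose beside them. The list of 14 stromal and endothelial markers gave another picture, with 0 calls and a median of 0.06. In it Col1a1 had values of 7.90 and 8.24 against 7.25 and 7.08 (adjusted p = 0.156), Col1a2 7.44 and 7.90 against 6.55 and 6.87 (adjusted p = 0.152), and Cxcl12, the niche chemokine, 4.10 and 4.23 against 4.70 and 6.99 (adjusted p = 0.376). The list's mean level was 5.90 and 6.03 in marrow and 5.91 and 6.30 in culture, and 0 of its markers were dim in both culture arrays. Without a marrow array Timp1, Acta2 and Lox did not pass. Whether other cells carry these rises was not tested.

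**Figure D3:**
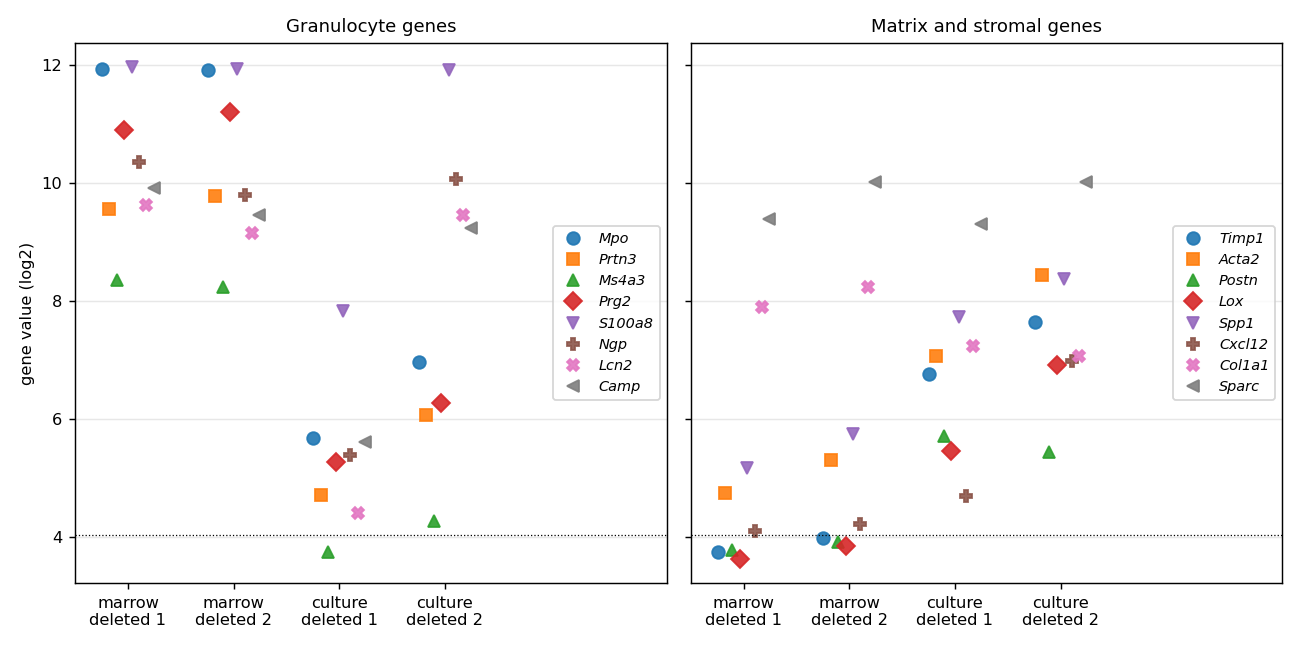
Gene values (log2, vertical axis) of granulocyte genes (left) and matrix or stromal genes (right) in the 4 arrays of deleted cells, 1 symbol per gene, shifted sideways to show overlaps. The dotted line marks the dim value of 4.03. Mpo is low in both culture arrays, whereas S100a8, Ngp and Lcn2 are low in culture array 1 only, and Cxcl12 is higher in culture array 2 (6.99) than in array 1 (4.70).

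The remaining marker lists held few calls. Of 16 T-cell markers 2 rose, Prkcq, a protein kinase C of T cells (1.61, adjusted p = 0.0241), and Cd8b1 (1.16, adjusted p = 0.0407), with mean levels of 5.41 and 5.30 in marrow and 5.89 and 5.82 in culture and Cd3d dim in both culture arrays. Cox6a2, read here as a plasmacytoid dendritic cell gene, was the 1 rise of 14 dendritic cell markers (1.29, adjusted p = 0.0485). That list had a median of 0.59, with 12 members positive and 9 higher in both culture arrays, against 19.3% of all genes. Its mean levels were 6.09 and 5.99 in marrow and 6.37 and 6.81 in culture. Ell2, an elongation factor used by plasma cells, was the 1 rise of 11 plasma cell markers (2.67, adjusted p = 0.0238), from 5.17 and 4.96 to 8.25 and 7.23. Erythroid (9 tested) and megakaryocyte markers (9) had 0 calls, and the haemoglobin gene Hbb-b1 split the cultures at 2.58 and 6.79 against 8.65 and 7.94 in marrow (adjusted p = 0.431). The next lowest p of the erythroid list belonged to Epb4.2 (-0.40, adjusted p = 0.475). The platelet gene Pf4 was at 5.00 and 4.48 in marrow and 7.13 and 7.88 in culture (adjusted p = 0.341), and Ppbp at 4.50 and 4.2 against 4.56 and 7.96 (adjusted p = 0.613). In the respiration list the lowest p belonged to Ogdh (-0.46, adjusted p = 0.275) and Idh3a (0.42, adjusted p = 0.532). Cox6a2 and Ell2 still passed without culture array 2, and none of the calls here passed without a marrow array.

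Lists with 0 calls by limma still held members at an unadjusted p under 0.05. Of all genes tested, 11.6% reached that level with both directions counted, whereas each count below is for 1 direction. Lower in culture were 13 of 25 G1 regulators, 3 of 21 heterochromatin genes, 3 of 20 FOXO targets and 3 of 14 stromal markers. So were 1 of 24 respiration genes, 1 of 23 monocyte markers, 1 of 21 NF-kB targets and 1 of 14 germline or imprinted genes. Higher were 8 of 27 ER chaperone genes, 5 of 21 NF-kB targets, 3 of 14 stromal markers and 2 of 25 G1 regulators. So were 2 of 27 ribosome biogenesis genes, 1 of 9 megakaryocyte markers and 1 of 14 germline or imprinted genes. The erythroid list had 0 of 9 in either direction. The count is also given for some lists with calls, calls included. Higher were 21 of 30 lipid genes (0 lower), 18 of 25 ATF4-list genes (1 lower), 15 of 39 interferon response genes (0 lower) and 12 of 26 glycolysis and hypoxia genes (1 lower).

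**Figure D4:**
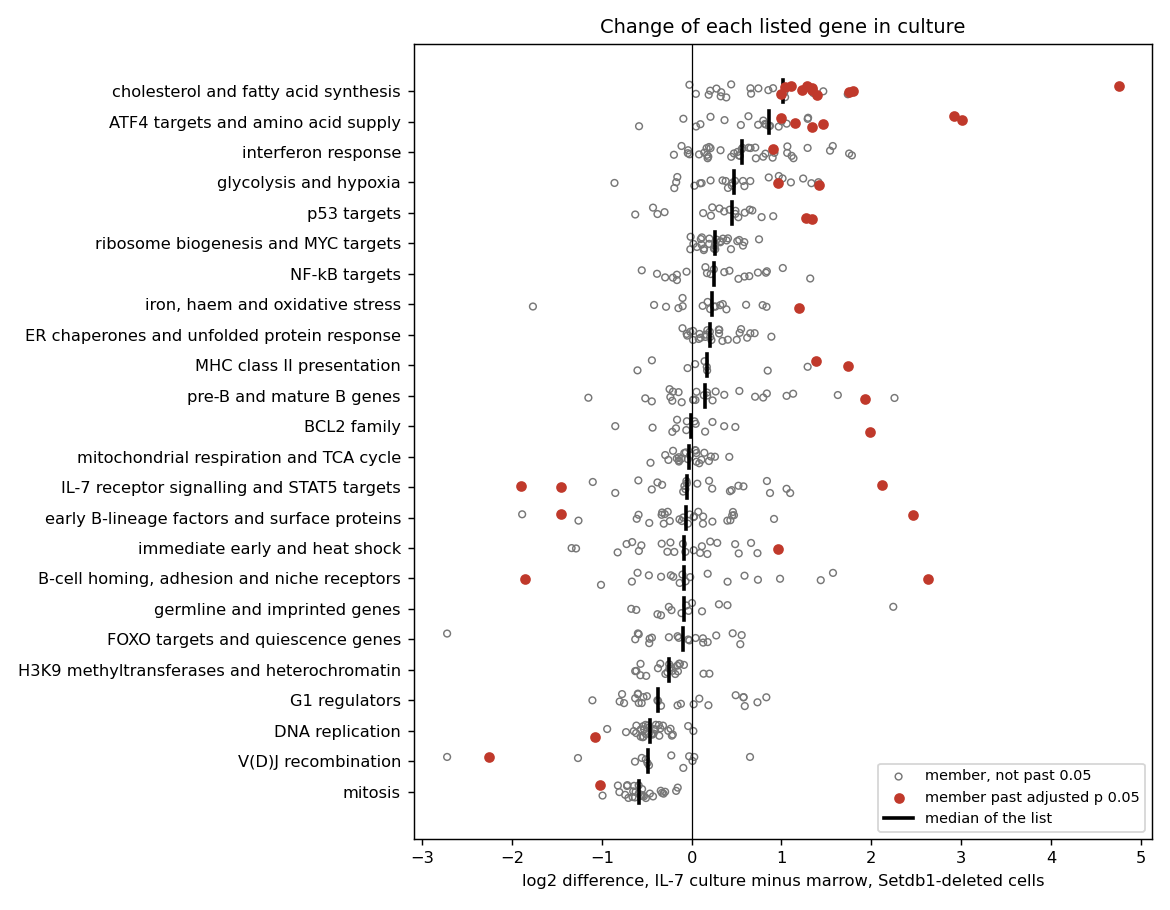
Log2 difference between culture and marrow in Setdb1-deleted cells (horizontal axis) for every tested member of the 24 process lists, ordered by median. Filled points passed an adjusted p of 0.05, open points did not, and the bar is the list median. Cholesterol and fatty acid synthesis has the highest median (1.01), with 11 filled points, and mitosis the lowest (-0.59).

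The same comparison in control cells, which also pairs culture with the transgene, gave 49 calls (0.305%), 26 higher and 23 lower in culture. Of these, 25 were among the 157 of the deleted cells, 15.9% of the 157 and 51.0% of the 49, and all 25 had the same sign in both. They held Tgfb3, Asns, Crhbp, Tfrc, Mpo, Ela2, Prg2 and Ear2 and, of the lipid list, Cyp51, Fdps, Fdft1, Hmgcs1, Idi1 and Sc5d. Of the 157 genes, 138 had a difference of the same sign in control cells. A call in one genotype and not in the other does not show that they differ, so the difference between the culture effects was tested itself. By limma 0 of 16050 genes passed (0%), with 1216 (7.58%) at an unadjusted p under 0.05 and a lowest adjusted p of 0.309. Leaving out single control arrays moved this count. Without control marrow array 2 it was 456, of which 375 had the more positive culture effect in deleted cells, and without control culture array 2 it was 3. Control marrow array 1, the lone array of its group in the first case, stood apart on the first principal component, at -50.5 against -10.9 for its replicate. The control marrow arrays correlated over genes at 0.945. Their mean levels were 8.87 and 6.77 for monocyte and macrophage markers and 8.28 and 8.63 for neutrophil markers. What part such cells have in the 456 was not tested.

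Some genes had a difference between the genotypes that was large beside its error, though none passed. Slc1a4 was 3.01 higher in culture in deleted cells and 0.79 in control cells, a difference of 2.22 (SE 0.28, adjusted p = 0.309). St6galnac5 was 2.98 higher in deleted cells and -0.04 in control cells, a difference of 3.01 (SE 0.44, adjusted p = 0.309). Cd74 had 1.74 against 0.16 (difference 1.58, SE 0.28, adjusted p = 0.404), and Rag2 had -2.26 against -0.36 (difference -1.90, SE 0.41, adjusted p = 0.455). The opposite order was seen for Crhbp, with 2.87 in deleted and 4.42 in control cells (difference -1.54, adjusted p = 0.573), and for Stard7, a lipid transfer protein, with 1.0 and 2.27 (difference -1.26, SE 0.20, adjusted p = 0.404). Asns had 2.93 and 2.69 (difference 0.23, SE 0.34, adjusted p = 0.904). Mpo had -5.61 and -4.89 (difference -0.71, adjusted p = 0.9), with an SE of 0.98 that leaves its size poorly measured.

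**Figure D5:**
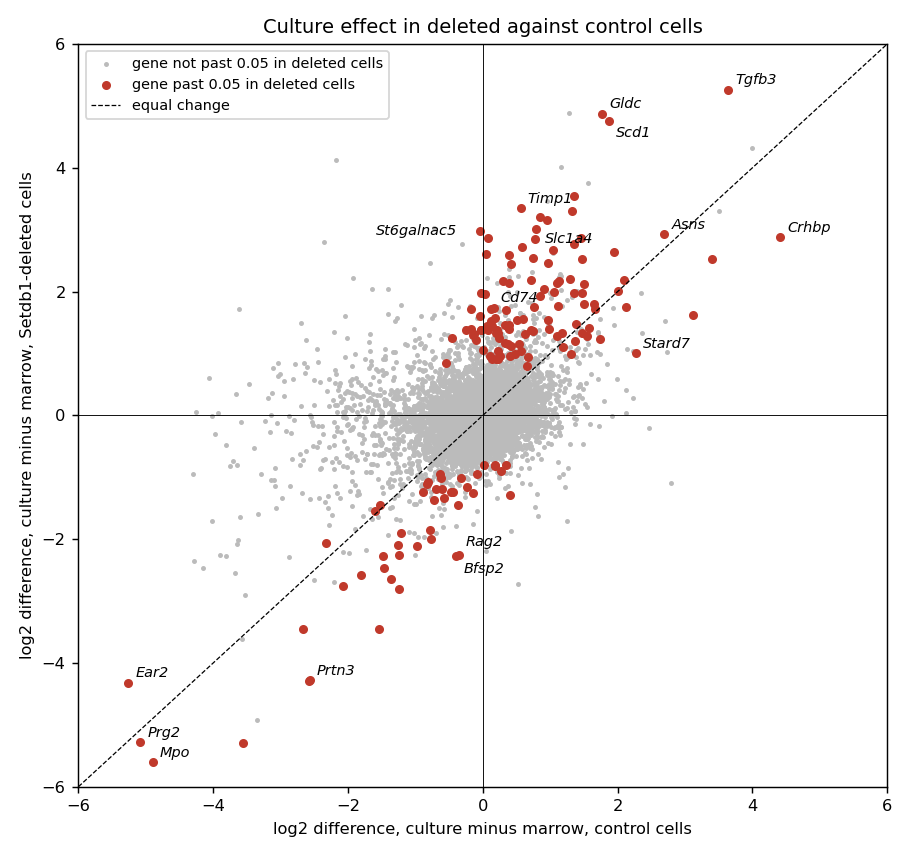
Log2 difference between culture and marrow in control cells (horizontal axis) and in Setdb1-deleted cells (vertical axis), 1 point per gene tested. Filled red points are the 157 genes past an adjusted p of 0.05 in deleted cells, chosen on the vertical axis, and the dashed line marks equal change. Asns lies near the line (2.69 and 2.93), and St6galnac5 lies near 0 for control cells (-0.04) and at 2.98 for deleted cells.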

How the data were processed

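The deposited table holds log2 values of 241576 probesets in 8 arrays. The authors made these log2 values, per the submitters' processing notes, by RMA in Affymetrix Expression Console 1.2.0.20. RMA corrects background, normalises arrays by quantiles and summarises probes. They were used as deposited. Quantile normalisation assumes like distributions of signal, so a shift of most genes in one direction would not show. The platform annotation gave 1 symbol to 212097 probesets, which were used. It gave several to 4475 and none to 25004, which were not. Of the 20416 symbols, 17621 were current in RefSeq's gene table for GRCm38.p6, 2742 matched a synonym and 53 neither. The text keeps the array's symbols.

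Median polish over the probesets of a gene gave its value per array. The median gene had 8 probesets, and 2292 genes had 1. Genes above the 25th percentile of gene values in at least 2 arrays were tested, and the 4366 others counted as dim. Using limma 3.58.1 (R 4.3.3, with the data.table package at version 1.17.8 to read files), a model of 4 group means was fitted to the 8 arrays, with empirical Bayes moderation (4 residual and 3.53 prior degrees of freedom). The tests were two-sided, and p-values were adjusted over the 16050 genes by the Benjamini-Hochberg method. SE is the standard error of the moderated fit. With 2 arrays per group, precision is limited throughout. On data simulated for the comparison of deleted cells with 200 of 16050 genes changed, the model called 44%, 92%, 94% and 98% of changes of 1, 2, 3 and 4 on the log2 scale, with 3 false calls. Each size had 50 genes, and the shares describe the simulated spread only. In the data, differences above 2 also missed the threshold where arrays of a group varied, as for Rag1 (-2.72), F13a1 (-2.90), Pf4 (2.77) and Hbb-b1 (-3.61).

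The 35 gene lists (804 entries, 763 matched on the array) and the comparison were chosen with earlier results of these data known. They are described by counts and medians, without a test of a list. The genes named were the 15 largest rises and falls past 0.05 with at least 3 probesets and groups that do not overlap, up to 4 members of each list past 0.05 by lowest p (up to 2 more where one direction was missing), or the 2 with the lowest p where none passed, and Setdb1 and Bcl2. All other genes in the text were picked with their values in view. Replicate numbers in the titles were not taken to pair samples: with 2 pairs, deviations of same-numbered arrays correlated at -0.08 between marrow and culture in deleted cells and at -0.12 in control cells. Between the control and the deleted cultures the correlation was 0.337, and a fit without both culture arrays numbered 2 is among the alternatives. Alternatives were other gene summaries, scalings, filters, a variance trend, a replicate block, a fit on the arrays of the groups compared alone, and arrays left out. Promoter letters come from RefSeq (GRCm38.p6), 250 bases before to 50 after the start site, and are a lookup by symbol.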

Additional observations from a re-analysis of the deposited data

How the results depend on the processing

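Main counts for deleted cells (157, of which 110 higher and 47 lower in culture) were 277, 184 and 93 in a fit on the 4 arrays of deleted cells alone, and 69, 35 and 34 without both culture arrays numbered 2. With a replicate block they were 120, 80 and 40, and 102 genes were called with and without it. Other gene summaries, scalings, filters and the variance trend gave 127 to 197. With 1 array left out the counts ran from 1 to 265 in all, 1 to 174 higher and 0 to 91 lower. Direction held for all 157 in every fit that tested them, 12 being untested with a filter at the 50th percentile. For the fits with arrays left out this was fixed in advance, since the groups of all 157 did not overlap. Filters, the variance trend, the replicate block and the fit on the arrays of deleted cells alone leave the difference itself unchanged. The sign could therefore change only with other gene summaries and scalings. Control counts (49, 26 and 23) were 28, 17 and 11 with the replicate block, 0, 0 and 0 in a fit on the control arrays alone (1559 at an unadjusted p under 0.05), and 76, 19 and 57 without both culture arrays numbered 2. They held 15 higher with the median of the probesets and 29 higher and 14 lower after subtracting each array's median. With 1 array left out they ran from 9 to 863, 6 to 269 and 1 to 594. A block with the numbers of all culture arrays crossed, reported for the control comparison only, gave 151, 50 and 101. It was chosen after seeing the data because same-numbered control arrays correlated below -0.1 between marrow and culture. For the difference of the culture effects the counts ran from 0 to 456, 0 to 375 and 0 to 81 with 1 array left out, and were 0 in all other fits. Bcl2 (-0.06) ran from -0.29 to 0.17 with 1 array left out, with 0.01 without deleted marrow array 2, and had 0.17 without both culture arrays numbered 2. The cause of these changes was not tested.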

Other observations

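Several calls outside the lists, picked out after their values were seen, concern cytokine and growth factor signalling. Csf2rb, the shared beta chain of the receptors for IL-3, IL-5 and GM-CSF, stood at 7.49 and 7.27 in deleted marrow cells and 8.82 and 8.61 in culture (rise of 1.33, adjusted p = 0.0175). Csf2rb2, the mouse paralogue that serves IL-3, was at 5.72 and 5.89 against 8.17 and 7.71 (rise of 2.14, SE 0.18, adjusted p = 0.00723), and signal of such near copies can be shared between their probesets. Csf1, the macrophage growth factor, rose by 1.75 (adjusted p = 0.0147), from 5.24 and 5.65 to 7.01 and 7.38. Neither the receptors nor the ligand had overlapping groups. Ptger4, a prostaglandin E2 receptor, rose by 1.98 (adjusted p = 0.0107) and was called in control cells too (1.47, adjusted p = 0.0462). Pmepa1, a feedback inhibitor of TGF-beta signalling, rose by 2.02 (adjusted p = 0.0107) in deleted and 2.01 (adjusted p = 0.0175) in control cells. Nlrp3, the inflammasome sensor, rose by 1.72 (adjusted p = 0.0411), from 5.11 and 4.82 to 6.71 and 6.66.

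Falls outside the lists held regulators of signalling and fate. Hes1, a repressor induced by Notch, went from 7.94 and 7.71 to 6.40 and 6.73 (fell by 1.26, adjusted p = 0.0236). Rgs2, which limits G-protein signalling, went from 8.25 and 8.19 to 6.90 and 7.05 (fell by 1.25, adjusted p = 0.0142), and Gstm1, a glutathione transferase, from 9.74 and 9.74 to 7.51 and 7.97 (fell by 2.0, adjusted p = 0.0189). Their groups did not overlap. Some rises belong to genes known from sensory cells: Olfr1342, an olfactory receptor gene read by 1 probeset, was at 4.04 and 4.26 in marrow and 7.47 and 6.58 in culture (rise of 2.87, adjusted p = 0.0098), against a difference of 0.08 in control cells. V1ra6, a vomeronasal receptor gene also read by 1 probeset, was dim in marrow at 2.91 and 2.83 and stood at 4.38 and 4.12 in culture (rise of 1.38, adjusted p = 0.0173).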
